A study of Drosophila melanogaster with 21 samples.

Results

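The cytoplasmic ribosomal protein genes of *Drosophila* were followed through mosaic eye-antennal discs of 7 genotypes, with 3 arrays each. Members were taken by symbol: every probe set annotated to a single gene whose name starts with RpL or RpS followed by a digit, P or A, with the probe set of highest mean over the 21 arrays standing for the gene. This gave 41 genes on 47 probe sets, out of 11982 genes named by 13647 single-symbol probe sets and 18769 probe sets tested. RefSeq lists 92 symbols of this form, so 51 were not analysed here. The tissue of every group was dissected from larvae of the third instar, on day 5 after egg deposition, of a w1118 background. In every group, including the FRT control, clones had been made by *ey*-FLP recombination and were marked by GFP under *tub*-GAL4, which also drove the transgenes. The control clones carried no transgene and no *scrib* mutation. Abrupt, a BTB zinc finger transcription factor, was overexpressed alone (*ab*) or in *scrib* mutant clones (*scrib*-+*ab*). The 4 remaining groups were *scrib* mutant clones with activated Ras (RasACT, the labels' RasV12) or activated Notch (NACT, the labels' NotchICD), each with or without bskDN, a dominant negative form of the JNK encoded by *basket*. Control and *ab* discs are labelled as having no tumours, and all *scrib* mutant groups as having tumours. RNA came from whole discs, so wild type tissue between the clones is part of every sample, and a change within clones cannot be separated from a change in the share of the disc that they fill. In such bulk RNA, fewer cells of a type and less RNA per cell cannot be told apart.

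The cytoplasmic ribosome is built from a small subunit, which reads the mRNA, and a large subunit, which joins amino acids and releases the chain through an exit tunnel. Its proteins (RpS for small, RpL for large) are needed in near equal numbers, and their mRNAs are among the most abundant in growing cells. In *Drosophila* the loss of 1 copy of many of these genes gives the Minute phenotype of slow development and short bristles, and Minute cells are eliminated from imaginal discs by wild type neighbours. Several ribosomal proteins have a second gene, often used in the germ line. Genes named "-like" in this family include homologues of yeast proteins that take the place of a ribosomal protein in unfinished large subunits and leave before the ribosome works.

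By these roles the 41 members fall into 30 principal genes (19 of the large and 11 of the small subunit), 3 homologues of assembly factors (*RpL24-like*, *RpLP0-like* and *RpL7-like*) and 8 duplicated or variant copies. They lie on all major arms, 14 of them on 3R, 10 on 2R, 9 on 2L, 5 on 3L and 3 on X. Values are GCRMA log2 levels, on which 1 unit is a doubling, and the lower end of the scale is at 2.17. The principal genes sit at its upper end, with means over all arrays from 13.50 for *RpL34a* to 15.80 for *RpL41*, where the highest value of any probe set tested was 16.17. Levels of different probe sets are not set against each other, since probes differ in binding. For 18 of the 30 principal genes the probe set is of a type that can match several transcripts. Among the copies, *RpL10Aa*, *RpL37-2*, *RpS10a*, *RpS28-like* and *RpS28a* were at or near the lower end in all groups, which leaves 36 members that reached 5 on at least 1 array.

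Measures of RNA and array quality set the 6 arrays with Abrupt apart from the remaining 15. The poly-A spike-in controls averaged 2.19 to 2.30 on these 6 arrays and 5.39 to 7.27 on the rest, and the 5′ minus 3′ difference of the GAPDH probe sets was -3.69 to -2.20 against -0.67 to -0.29. For eIF4A that difference was -4.22 to -3.25 against -1.52 to -1.13. Whatever these measures reflect cannot be told apart from Abrupt overexpression in any comparison of these groups with the control. Summed marker levels (log2), which follow the brightest genes of a list, also moved. Muscle genes (4 of 6 listed were measured) summed to 7.76 to 9.16 in control, 10.57 to 11.50 in *ab* and 11.46 to 11.84 in *scrib*-+*ab*. Haemocyte genes (7 of 7 measured) summed to 9.95 to 10.78, 11.97 to 12.26 and 12.68 to 12.97. Of these, 6 had a higher mean than in control in each Abrupt group. The 1 lower was *Hml*, at 7.67 in control, 6.68 in *ab* and 7.06 in *scrib*-+*ab*. Fat body genes (3 of 5 measured) summed to 8.08 to 10.15, 6.32 to 8.05 and 5.78 to 8.05. Brain and glia genes (6 of 6 measured) summed to 12.44 to 12.54, 12.43 to 12.57 and 12.67 to 12.69. In each Abrupt group 4 of these had a lower mean than in control and 2 a higher one. The 9 measured eye-antennal genes of 10 listed were all above 3 in every group. Their sum fell from 14.92 to 15.06 in control to 14.45 to 14.57 in *ab* and 13.798 to 13.998 in *scrib*-+*ab*. The genes did not all move with the sum. At an adjusted p under 0.05 (limma), 5 were lower and 2 higher in *ab*, and 6 were lower and 2 higher in *scrib*-+*ab*. The 2 higher were *Dll* and *ct* in each group. By the study's methods fewer pairs of discs went into an *ab* or *scrib*-+*ab* sample than into a control sample. The part of all this in the results on the Abrupt groups was not tested.

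Across the 7 genotypes the principal genes were lowest where Abrupt was overexpressed. The median of their group means was 15.41 in control, 14.92 in *ab* and 15.18 in *scrib*-+*ab*. It was 15.47 in *scrib*-+RasACT, 15.41 in *scrib*-+RasACT+bskDN, 15.44 in *scrib*-+NACT and 15.34 in *scrib*-+NACT+bskDN. The lowest group mean was that of *ab* for 22 of the 30 genes, that of *scrib*-+*ab* for 7 and that of control for *RpS21* alone. Over the 5 groups without Abrupt, the group means of a gene spanned between 0.049 for *RpLP1*, an acidic protein of the ribosomal stalk, and 0.24 for *RpL3*, which lies near the peptidyl transferase centre. Replicate arrays were close, the median SD over the principal genes being 0.023 in control, 0.099 in *ab*, 0.071 in *scrib*-+*ab* and 0.028 to 0.054 in the other groups.

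**Figure D1:**
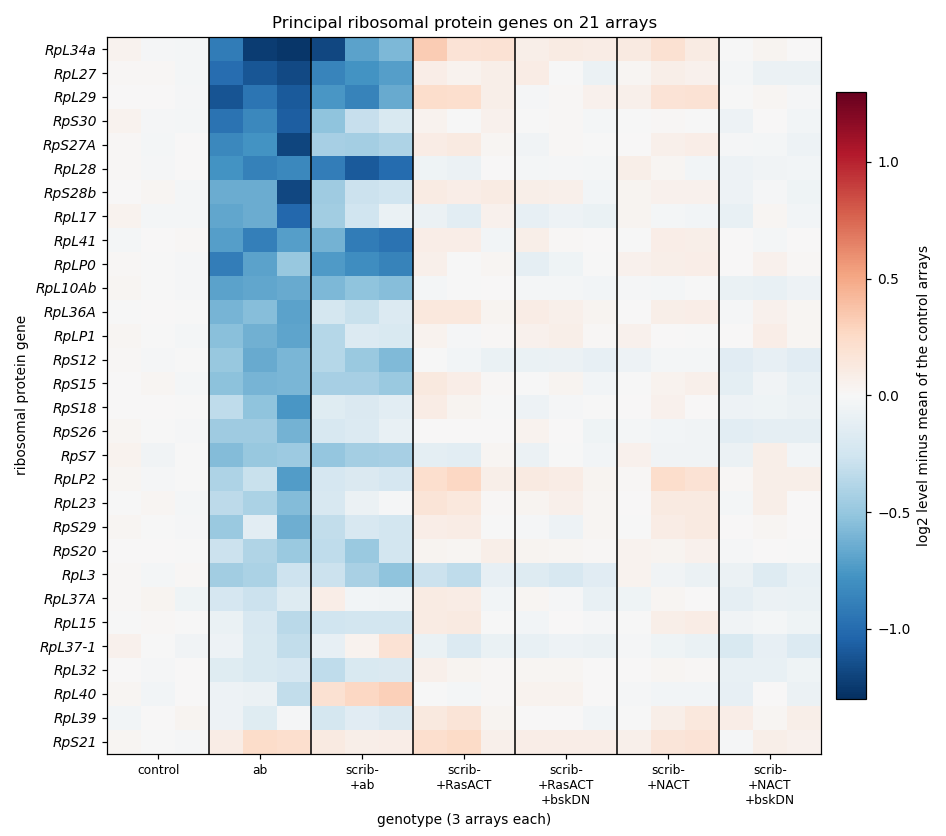
Log2 level of each of the 30 principal ribosomal protein genes (rows) on each of the 21 arrays (columns, by genotype), as the difference from the gene's mean over the 3 control arrays. The *ab* arrays and, less deeply, the *scrib*-+*ab* arrays are below control for most genes, and *RpS21* is above it.

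In discs overexpressing Abrupt, most genes for ribosomal proteins of both subunits were lower than in control discs. At an adjusted p under 0.05 (limma, adjusted over all 18769 probe sets), 26 of the 30 principal genes fell, 1 rose and 3 did not pass, with a median change of -0.56. Over all 41 members, 28 fell and 5 rose, against a background of 12.2% of all probe sets lower and 15.0% higher. Under the stricter rule that also asks for a log2 change above 1, 5 members were lower and 2 higher, where 14.5% of all probe sets met that rule in either direction. Of the large subunit 16 of 19 genes fell (median -0.62), and of the small subunit 10 of 11 (median -0.54).

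*RpL34a*, a large subunit gene, had the greatest fall among the principal genes. It is also on the list of duplicated gene copies, and no second *RpL34* gene was among the members. Its levels were 13.76, 13.69 and 13.68 on the control arrays and 12.81, 12.48 and 12.45 on the *ab* arrays, a change of -1.13 (SE 0.17, adjusted p = 0.00345). The groups were apart by more than either spread. *RpL27* went from 15.16, 15.16 and 15.11 to 14.15, 14.03 and 13.97 (-1.09, SE 0.055, adjusted p = 4.41e-05). *RpL29* went from 15.30, 15.30 and 15.27 to 14.17, 14.34 and 14.20 (-1.05, SE 0.064, adjusted p = 7.42e-05). These were the only principal genes whose levels fell by more than 1 unit, and all belong to the large subunit. *RpS30*, a small subunit gene, followed with 15.18, 15.12 and 15.11 against 14.18, 14.30 and 14.07 (-0.96, SE 0.094, adjusted p = 0.000534). The steadiest fall relative to its error was that of *RpL10Ab*, whose protein forms the mobile L1 stalk, from 15.39, 15.37 and 15.35 to 14.68, 14.69 and 14.71 (-0.68, SE 0.019, adjusted p = 4.97e-06). Neither gene had a control array as low as any *ab* array.

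The genes for all 3 proteins of the stalk that recruits elongation factors fell. *RpLP0*, the base of the stalk, had 15.64, 15.61 and 15.61 in control and 14.71, 14.92 and 15.13 in *ab* (-0.70, adjusted p = 0.00252). *RpLP1* changed by -0.62 (adjusted p = 0.000491) and *RpLP2*, its partner, by -0.47 (adjusted p = 0.0166). The 3 *ab* arrays were spread more widely for *RpLP0* than for most genes, yet all lay below the control arrays. After a further quantile normalisation neither *RpLP0* nor *RpLP2* passed, and the *RpLP2* call was also lost without any 1 control array.

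*RpS27A* and *RpL40* are both made as fusions with ubiquitin, and are thus also a source of ubiquitin. *RpS27A* fell from 15.73, 15.69 and 15.71 to 14.87, 14.93 and 14.52 (-0.94, SE 0.10, adjusted p = 0.000899). *RpL40* was at 15.11, 15.04 and 15.09 in control and at 15.01, 15.01 and 14.76 in *ab* (-0.16, adjusted p = 0.212), which did not pass. The *ab* arrays were below control for both, but for *RpL40* by less than the spread of the *ab* arrays. *RpS12*, known in *Drosophila* for its part in the recognition of Minute cells, changed by -0.58 (adjusted p = 0.000711). The remaining genes that fell had changes between -0.83 for *RpL28* and -0.19 for *RpL32*.

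*RpL32*, widely used as a reference gene in fly RT-PCR, moved little on its 1 probe set. Its levels were 15.53, 15.52 and 15.53 in control and 15.37, 15.33 and 15.31 in *ab*, a change of -0.19 (SE 0.039, adjusted p = 0.0118). The SD of its arrays was 0.0092 in control, 0.029 in *ab* and 0.080 in *scrib*-+*ab*, and the fit used 1 estimate of spread from all of them. Small as it was, the change passed, although its sign turned when the arrays were quantile normalised again. *RpS21*, whose loss causes overgrowth of the larval blood-forming organs in *Drosophila*, was the 1 principal gene that rose. It had 14.98, 14.95 and 14.94 in control and 15.06, 15.20 and 15.18 in *ab* (0.19, SE 0.038, adjusted p = 0.0116), with no overlap. *RpL39*, which lines the exit tunnel (-0.078, adjusted p = 0.281), and *RpL37-1* (-0.20, adjusted p = 0.221) did not pass.

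**Figure D2:**
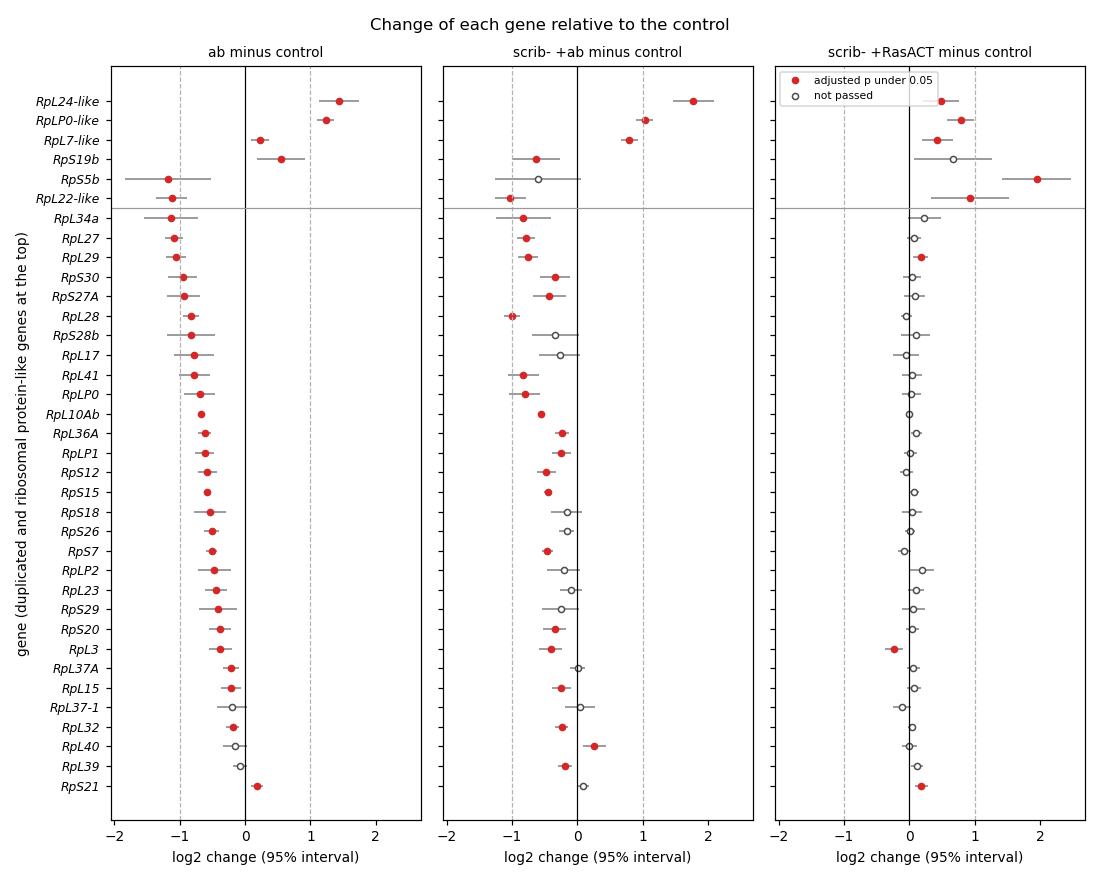
Log2 change of 36 ribosomal protein genes (rows; members that never reached 5 are left out) in *ab*, *scrib*-+*ab* and *scrib*-+RasACT discs relative to control, with 95% confidence intervals. Red marks an adjusted p under 0.05 and the dashed lines a change of 1 unit; 26 principal genes are red and left of 0 in *ab*, 19 in *scrib*-+*ab* and 1 in *scrib*-+RasACT.

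In *scrib* mutant discs overexpressing Abrupt the same control arrays were the reference, and fewer members passed. Of the principal genes 19 fell, 1 rose and 10 did not pass, with a median change of -0.30. Over all members 21 fell and 4 rose, beside 15.1% of all probe sets lower and 14.2% higher. The stricter rule was met by 1 member lower and 2 higher, beside 17.2% of all probe sets in either direction. None of the 3 was a principal gene. Of the large subunit 13 of 19 genes fell (median -0.25) and of the small subunit 6 of 11 (median -0.34).

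Among the principal genes the greatest fall was that of *RpL28*, a large subunit protein, from 15.21, 15.18 and 15.20 in control to 14.30, 14.10 and 14.20 in *scrib*-+*ab* (-0.997, SE 0.052, adjusted p = 3.37e-05). *RpL41*, the shortest ribosomal protein, went from 15.99, 16.02 and 16.03 to 15.40, 15.11 and 15.05 (-0.83, adjusted p = 0.000969). In both genes every tumour array was below every control array. *RpL34a* changed by -0.82 (adjusted p = 0.0120), with levels of 12.53, 13.01 and 13.13. *RpLP0* changed by -0.80 (adjusted p = 0.00112) and *RpL27* by -0.78 (adjusted p = 0.000108). So *RpLP0* fell in both Abrupt genotypes, whereas its partner *RpLP2* was at 15.22, 15.26 and 15.22 in *scrib*-+*ab* and did not pass there.

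*RpL40* was the principal gene that rose. Its levels were 15.28, 15.36 and 15.39 in *scrib*-+*ab* against 15.11, 15.04 and 15.09 in control (0.26, SE 0.074, adjusted p = 0.0411). The call was lost when any 1 of these 6 arrays was left out. The other ubiquitin fusion, *RpS27A*, changed by -0.43 (adjusted p = 0.0224), a call that was likewise lost without any 1 of the arrays. *RpL32* was at 15.19, 15.33 and 15.34 (-0.24, adjusted p = 0.00394). *RpS21* was at 15.07, 15.03 and 15.04 (0.093, adjusted p = 0.136) and *RpL37A* differed from control by 0.0044.

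Setting *scrib*-+*ab* against *ab* asks what the *scrib* mutation adds to Abrupt, among arrays close in spike-in level. The 5′ minus 3′ difference averaged -2.71 in *ab* and -2.85 in *scrib*-+*ab* for GAPDH, and -3.79 and -3.39 for eIF4A. Replicate 3 of *ab* was the lowest array in both, at -3.69 and -4.22. Hybridisation controls averaged 12.20 in *ab* and 14.18 in *scrib*-+*ab*, beside 11.28 in control. The part of these measures was not tested. Here 12 of the 30 principal genes were higher in *scrib*-+*ab*, none was lower and 18 did not pass (median 0.23). At an unadjusted p under 0.05 there were 20, of which 17 were higher. The share of all probe sets at an unadjusted p was not counted in any comparison, so such counts have no background beside them. Over all members 13 were higher and 1 lower, beside 3.88% of probe sets higher and 6.30% lower. The stricter rule was met by 1 member (4.28% of all probe sets), the variant copy *RpS19b*. With limma's trend and robust options no member passed, and with only the 6 arrays compared 3 did.

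*RpS30* differed most, at 14.62, 14.84 and 14.94 in *scrib*-+*ab* against 14.18, 14.30 and 14.07 in *ab* (0.62, SE 0.094, adjusted p = 0.0110). *RpS27A* was at 15.28, 15.27 and 15.31 against 14.87, 14.93 and 14.52 (0.51, adjusted p = 0.0292). *RpL40* was higher by 0.41 (adjusted p = 0.0187), so both ubiquitin fusions were above their level in *ab*. *RpL36A* (0.38, adjusted p = 0.00380) and *RpLP1* (0.37, adjusted p = 0.0127) completed the first 5. *RpL28* and *RpLP0* were not among the 12, and their *scrib*-+*ab* arrays averaged 14.20 and 14.81 against 14.37 and 14.92 in *ab*. A smaller fall from control in *scrib*-+*ab* was thus not seen in every member.

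Low values in the Abrupt groups were not limited to the members. The other bright probe sets were not cleared of ribosomal protein genes outside the members. They therefore cannot show whether genes of other kinds fell alike. The 99 other probe sets with a mean of 14 or more had a median change of -0.39 in *ab*, with 61 lower and 14 higher at an adjusted p under 0.05, and of -0.31 in *scrib*-+*ab*, with 52 lower and 11 higher. Between *scrib*-+*ab* and *ab* their median was 0.027, with 16 lower and 7 higher. The highest value on an array averaged 15.69 in *ab* and 15.71 in *scrib*-+*ab*, and 16.01 to 16.15 in the other groups, so the upper end of the scale itself was lower on these 6 arrays. After a further quantile normalisation, which gives all arrays the same upper end, the median change of the principal genes was -0.20 in *ab*, with 15 lower and 5 higher, and -0.049 in *scrib*-+*ab*, with 8 lower and 5 higher. Whether they passed or not, 22 of the 30 were then below control in *ab* in place of 29, and 18 in *scrib*-+*ab* in place of 26. Under that scaling 18 members in all were lower in *ab* and 8 higher, and for all probe sets the share of called changes that were higher went from 59.7% to 48.3%. *RpL34a*, *RpL27*, *RpL29* and *RpL28* fell in *ab* under both scalings.

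Further probe sets exist for 4 members and did not always move with the chosen one. For *RpL3* the second probe set averaged 11.15 in control, 8.97 in *ab* and 8.88 in *scrib*-+*ab*, changes of -2.19 (adjusted p = 0.000302) and -2.27, both larger than the -0.38 and -0.41 of the brightest one. The third *RpL3* probe set also fell, by 1.98 and 2.27. The size of the *RpL3* change thus depended on the probe set read. The 37 members with 1 probe set could not be checked in this way. The second *RpS29* probe set changed by -1.03 in *ab* and -0.26 in *scrib*-+*ab*, and the other one was at the lower end in all groups. The second probe set of *RpS7* gave 1 identical value on all control arrays and another on all *ab* arrays, near the lower end of the scale, and no change is read from it. *RpS30* was the exception in direction. Its second, dim probe set averaged 6.32 in control and 7.34 in *ab* (1.02, adjusted p = 0.0474), where the bright one fell. That second probe set was also the most variable elsewhere, at 8.50 in *scrib*-+RasACT and 8.51 in *scrib*-+NACT+bskDN, and the direction of *RpS30* in the Abrupt groups thus depends on the probe set read.

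In the Ras and Notch tumours the principal genes, read on their brightest probe sets, stayed close to the control. In *scrib*-+RasACT 2 of the 30 rose, 1 fell and 27 did not pass (median 0.045). Over all members 7 rose and 1 fell, beside 9.94% of probe sets higher and 10.9% lower, and 1 member met the stricter rule (6.43% of all probe sets). *RpS21* rose from 14.98, 14.95 and 14.94 to 15.18, 15.21 and 15.02 (0.18, adjusted p = 0.0105). *RpL29* rose from 15.30, 15.30 and 15.27 to 15.52, 15.51 and 15.36 (0.17, adjusted p = 0.0385), a call lost with the replicate number as a block (adjusted p = 0.0886). Replicate 3 of *scrib*-+RasACT was nearest to control for both genes. *RpL3* fell from 15.32, 15.28 and 15.33 to 15.03, 14.98 and 15.20 (-0.24, adjusted p = 0.0154), and its second probe set by 0.75. In these discs all 9 measured eye-antennal marker genes fell, their sum being 13.86 to 14.27 against 14.92 to 15.06 in control, and the muscle markers summed to 9.77 to 10.24 against 7.76 to 9.16. Haemocyte markers summed to 10.36 to 11.04 against 9.95 to 10.78, and fat body markers to 5.94 to 6.02 against 8.08 to 10.15. Brain and glia markers summed to 12.61 to 12.73 against 12.44 to 12.54. The part of these cell types was not tested. Fitted on the 6 arrays of this comparison alone, no principal gene passed, and leaving out replicate 1 of *scrib*-+RasACT left 2 members in all.

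In *scrib*-+NACT no principal gene passed (median 0.041, limma), and 2 had an unadjusted p under 0.05. Their changes lay between -0.053 for *RpL37-1* and 0.14 for *RpL29*. Over all members 3 rose and none fell, beside 5.07% of probe sets higher and 5.89% lower, and no member met the stricter rule (4.03% of all probe sets). All 3 were homologues of assembly factors. Eye-antennal markers summed to 14.24 to 14.57 in these discs against 14.92 to 15.06 in control. Brain and glia markers summed to 12.97 to 13.13 against 12.44 to 12.54. In neither list did all genes move with the sum. Sums of the other markers are given with the bskDN comparison, and the part of these cell types was not tested. The same control arrays served all 4 comparisons with control, so these are not independent of each other.

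The bskDN arrays ask what blocking JNK does in each tumour. In the Ras tumours no principal gene differed between *scrib*-+RasACT and *scrib*-+RasACT+bskDN (median 0.051, limma), and 7 had an unadjusted p under 0.05, all higher without bskDN. The range was -0.062 for *RpL3* to 0.15 for *RpL29*. Over all members 1 was higher and none lower, beside 5.11% of probe sets higher and 5.19% lower, and none met the stricter rule (4.22%). Muscle markers summed to 7.81 to 9.32 with bskDN here, and haemocyte markers to 9.55 to 10.25. Fat body markers summed to 5.94 to 6.02 in *scrib*-+RasACT and to 6.87 to 13.19 with bskDN, a wide spread between arrays. Brain and glia markers summed to 12.61 to 12.73 in *scrib*-+RasACT and 12.62 to 12.75 with bskDN. The part of these cell types was not tested. In the Notch tumours 6 principal genes were higher without bskDN (median 0.085, limma), all by small amounts. At an unadjusted p under 0.05 there were 15, all higher without bskDN. Over all members 6 were higher and 2 lower, beside 7.06% of probe sets higher and 8.80% lower, with 1 member past the stricter rule (5.37%).

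*RpL32* shows how small these changes were on the probe sets chosen. It was at 15.53, 15.56 and 15.54 in *scrib*-+NACT and at 15.43, 15.43 and 15.47 with bskDN (0.097, SE 0.015, adjusted p = 0.00304), apart but close. *RpS15*, near the decoding site, had the greatest difference of the 6 (0.12, adjusted p = 0.0469), and *RpL10Ab* differed by 0.069 (adjusted p = 0.00201). *RpS12*, *RpS26* and *RpS20* were higher by 0.095, 0.088 and 0.052. With the replicate number as a block 1 member in all was left of the 8. None of the 6 principal genes passed with a filter on low values or with trend and robust options. The calls of *RpS26* and *RpS20* were lost without any 1 of the 6 arrays, and those of *RpS15* and *RpS12* without any 1 of 4 of them. Muscle markers summed to 8.72 to 9.34 in *scrib*-+NACT and 5.06 to 5.57 with bskDN, where 2 of the 4 genes were below 3, and haemocyte markers to 10.02 to 11.32 and 8.52 to 9.09. Fat body markers summed to 9.19 to 12.37 in *scrib*-+NACT and 6.86 to 7.07 with bskDN. Brain and glia markers summed to 12.97 to 13.13 in *scrib*-+NACT and 13.09 to 13.47 with bskDN. The part of these cell types in the differences was not tested.

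An interaction term compared the JNK effect in the Ras tumours with that in the Notch tumours. No principal gene passed (median -0.015, limma), and 5 had an unadjusted p under 0.05. Over all members 1 was higher and none lower, beside 4.40% of probe sets higher and 4.56% lower, and none met the stricter rule (4.51%). The 1 was *RpLP0-like*.

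The homologues of assembly factors went the opposite way from the principal genes in the Abrupt groups. *RpL24-like*, homologue of yeast Rlp24, had 12.61, 12.48 and 12.52 in control, 13.91, 14.07 and 13.96 in *ab* and 14.03, 14.54 and 14.38 in *scrib*-+*ab*. The changes were 1.44 (SE 0.13, adjusted p = 0.000361) and 1.78 (adjusted p = 0.000118). No Abrupt array was near the control arrays. In *scrib*-+RasACT its levels were 13.16, 13.13 and 12.79 (0.49, adjusted p = 0.0137), and in *scrib*-+NACT 12.79, 13.23 and 13.15 (0.52, adjusted p = 0.0170). These rises were smaller, and with bskDN the means were 12.63 and 12.76.

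*RpLP0-like*, homologue of yeast Mrt4, which holds the place of RpLP0 in immature large subunits, had 10.62, 10.59 and 10.58 in control. It stood at 11.88, 11.83 and 11.80 in *ab* (1.24, SE 0.053, adjusted p = 2.41e-05) and at 11.60, 11.54 and 11.75 in *scrib*-+*ab* (1.03, adjusted p = 3.27e-05). *RpLP0* itself fell in both groups. In the tumours it was higher than control as well, by 0.78 in *scrib*-+RasACT (adjusted p = 4.76e-05) and 0.55 in *scrib*-+NACT (adjusted p = 0.00150). The difference between arrays without and with bskDN had opposite signs in the Ras and Notch tumours. In the Ras tumours it was at 11.58, 11.51 and 11.05 without bskDN and 10.97, 11.01 and 11.07 with it, where replicate 3 lay among the bskDN arrays (0.36, adjusted p = 0.110). In the Notch tumours it was at 11.09, 11.20 and 11.16 without bskDN and 11.68, 11.78 and 11.74 with it (-0.58, adjusted p = 0.0112), with no overlap. The difference between the effects was 0.95 (95% interval 0.56 to 1.34, adjusted p = 0.0102), and this call was lost with the replicate number as a block.

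*RpL7-like*, homologue of yeast Rlp7, had 12.24, 12.10 and 12.22 in control and 12.97, 12.95 and 13.01 in *scrib*-+*ab* (0.79, adjusted p = 9.61e-05). In *ab* it was at 12.44, 12.48 and 12.31 (0.23, adjusted p = 0.0224). That call was lost without replicate 1 or 2 of *ab* or replicate 2 or 3 of control. A filter on low values, trend and robust options, only the arrays compared and a replicate block each lost it too. *RpL7-like* was higher in *scrib*-+*ab* than in *ab* by 0.57 (SE 0.054, adjusted p = 0.00245). It was the 1 homologue that passed between the Abrupt groups. In *scrib*-+RasACT it stood at 12.78, 12.68 and 12.38, above control (0.43, adjusted p = 0.0108) and above the 12.09, 11.99 and 12.17 of the bskDN discs (0.53, adjusted p = 0.0433). In *scrib*-+NACT it was 0.53 above control (adjusted p = 0.00474).

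**Figure D3:**
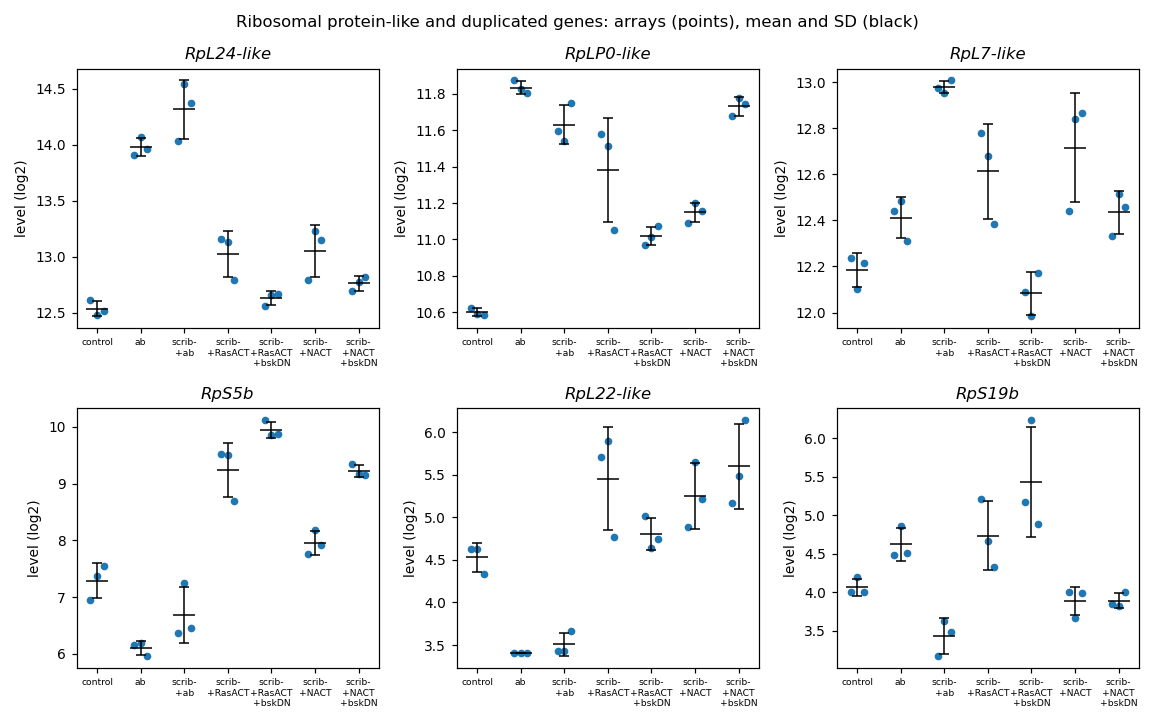
Log2 levels of the 3 assembly factor homologues and of the 3 variant copies above the lower end of the scale, by genotype (points, arrays; bars, mean ± SD, n = 3). Each homologue has its highest mean in an Abrupt group, and *RpS5b* is lowest in *ab* and highest in *scrib*-+RasACT+bskDN.

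Of the variant copies, *RpS5b*, used in the ovary, ranged most widely. It had 6.94, 7.38 and 7.54 in control and 6.16, 6.19 and 5.96 in *ab* (-1.19, SE 0.27, adjusted p = 0.0189), a call lost without replicate 1, 2 or 3 of *ab* or replicate 2 or 3 of control. In *scrib*-+RasACT it rose to 9.52, 9.50 and 8.69 (1.95, SE 0.25, adjusted p = 5.44e-05), the only member past the stricter rule there. Its mean was higher with bskDN in both tumours, and the difference passed in the Notch tumours. In the Ras tumours it then stood at 10.12, 9.86 and 9.87 (without minus with bskDN -0.71, adjusted p = 0.0874). In the Notch tumours it was at 7.76, 8.18 and 7.92 without and 9.35, 9.17 and 9.16 with bskDN (-1.27, SE 0.22, adjusted p = 0.00493). With the replicate block this value was -1.33 (adjusted p = 0.0707). The interaction did not pass (0.56, adjusted p = 0.439). Its principal counterpart *RpS5a* was not analysed here. Of the 6 germ line genes measured, *vas*, *aub*, *osk* and *piwi* had group means below 3 throughout, *bam* averaged 4.57 in control and at most 3.26 elsewhere, and *ovo*, also expressed in epithelia, was at 10.11 to 11.89.

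*RpL22-like*, a variant known from the testis, was dim. It had 4.63, 4.63 and 4.34 in control, 3.41 on all 3 *ab* arrays and 3.43, 3.43 and 3.67 in *scrib*-+*ab*. The identical *ab* values are the lowest of this probe set on any array, so the size of the change cannot be read. The gene is among the members past the stricter rule in both Abrupt groups, and both calls were lost with limma's trend and robust options. In *scrib*-+RasACT it was at 5.70, 5.89 and 4.77 (0.92, adjusted p = 0.0281), where replicate 3 was close to control. *RpS19b*, a germ line variant, had 4.0, 4.19 and 4.0 in control, 4.49, 4.86 and 4.51 in *ab* and 3.18, 3.63 and 3.49 in *scrib*-+*ab*. It was thus above control in *ab* (0.56, adjusted p = 0.0373), below it in *scrib*-+*ab* (-0.63, adjusted p = 0.0206) and lower in *scrib*-+*ab* than in *ab* by 1.19 log2 units (SE 0.15, adjusted p = 0.00619). The call in *ab* was lost without any 1 of the 6 arrays and that in *scrib*-+*ab* without any 1 control array, and a further quantile normalisation turned the value in *ab* to -0.25.

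The mitochondrial ribosome, built from nuclear genes of its own, went another way. Of its 69 measured genes 32 rose and 11 fell in *ab* (median 0.45), beside 15.0% of all probe sets higher and 12.2% lower. In *scrib*-+*ab* 36 rose and 11 fell (median 0.46), beside 14.2% and 15.1%. *mRpL24* was at 9.38 in control, 11.32 in *ab* and 11.35 in *scrib*-+*ab* (1.94, adjusted p = 0.000106, and 1.97, adjusted p = 7.93e-05), while *mRpS18C* fell by 1.87 in *scrib*-+*ab* (adjusted p = 0.00485). In *scrib*-+RasACT 57 rose and none fell (median 0.66), beside 9.94% of probe sets higher and 10.9% lower, in discs where 2 of the 30 principal cytoplasmic genes rose and 1 fell and the marker sums moved as given above. *mRpS33* had the greatest rise there, from 9.04 to 10.31 (1.27, SE 0.15, adjusted p = 3.21e-05). In *scrib*-+NACT 11 rose and none fell (median 0.31), beside 5.07% higher. Without bskDN 3 were higher in the Ras tumours, beside 5.11% of all probe sets, and 7 lower in the Notch tumours, beside 8.80%, both near the background.

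Of the ribosome biogenesis genes, which make and process ribosomal RNA and assemble subunits, 29 of 41 listed were measured. In *ab* 15 rose and 7 fell, beside 15.0% of all probe sets higher and 12.2% lower, and in *scrib*-+*ab* 12 rose and 9 fell, beside 14.2% and 15.1%. *Ns2*, a nucleolar GTPase, went from 2.87 in control, near the lower end of the scale, to 10.16 and 9.99 (7.28, adjusted p = 2.85e-07, and 7.12, adjusted p = 2.91e-07). *nclb*, the fly PWP1, which promotes transcription of ribosomal RNA, went from 5.88 to 9.89 and 9.67 (4.01 and 3.79). *l(1)G0004* averaged 9.19 in control, 6.46 in *ab* and 6.69 in *scrib*-+*ab*. In the tumours 14 rose in *scrib*-+RasACT and 11 in *scrib*-+NACT, beside 9.94% and 5.07% of all probe sets, with none lower. Here the medians of the JNK effect had opposite signs. In the Ras tumours 7 genes were higher without bskDN (5.11% of all probe sets) and none lower (median 0.19), whereas in the Notch tumours 2 were higher and 15 lower (8.80% of all), with a median of -0.37. The interaction passed for 13, all positive, where 4.40% of all probe sets did (median 0.53), and for *l(1)G0004* it was 1.13.

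Translation factors (30 of 37 measured) had more genes lower than higher in the Abrupt groups, with 15 lower and 8 higher in *ab* (12.2% and 15.0% of all probe sets) and 17 lower and 6 higher in *scrib*-+*ab* (15.1% and 14.2%). *pAbp*, the poly(A) binding protein, changed by -1.47 (adjusted p = 0.00100) and -1.29 (adjusted p = 0.00143), while *eIF4B* rose by 1.99 in *ab* (adjusted p = 0.00171). In the tumours *scrib*-+RasACT had 3 higher and 1 lower (9.94% and 10.9% of all probe sets), and *scrib*-+NACT 2 higher (5.07%). *eEF1alpha2*, a gene for the elongation factor that brings tRNAs to the ribosome, was lower without bskDN in the Ras tumours (9.46 against 12.09) and higher in the Notch tumours (9.41 against 7.56). The interaction was -4.49 (adjusted p = 7.28e-06). Of the TOR pathway and growth genes (17 of 23 measured), 8 fell in each Abrupt genotype, with 3 higher in *ab* and 2 in *scrib*-+*ab*, against the same background shares. *raptor*, which brings substrates to TOR, went from 5.08 to 2.56 and 2.66 (-2.52, adjusted p = 6.33e-05, and -2.42, adjusted p = 5.56e-05).

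Genes known to respond to a loss of ribosomal proteins in *Drosophila* discs (8 of 11 measured) had 1 higher and 3 lower in *ab*, and likewise in *scrib*-+*ab*, where 12.2% and 15.1% of all probe sets were lower. The 1 was *Ilp8*, the relaxin-like hormone with which damaged discs delay development. Its mean was 5.71 in control, 9.14 in *ab* (3.43, SE 0.86, adjusted p = 0.0269) and 10.80 in *scrib*-+*ab* (5.09, adjusted p = 0.00461). It was high as well in *scrib*-+RasACT at 11.51 (5.80, adjusted p = 6.28e-06) and in *scrib*-+NACT at 10.58 (4.87, adjusted p = 4.79e-05). On the probe sets chosen, the principal ribosomal protein genes were near control in these tumours. A link between these genes and *Ilp8* was not tested in any group. *PEK*, a kinase of the stress response that slows translation, fell by 1.49 and 1.97 in the Abrupt groups. With bskDN *Ilp8* was at 8.25 and 9.30, and the interaction was 1.99 (adjusted p = 0.000136).

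**Figure D4:**
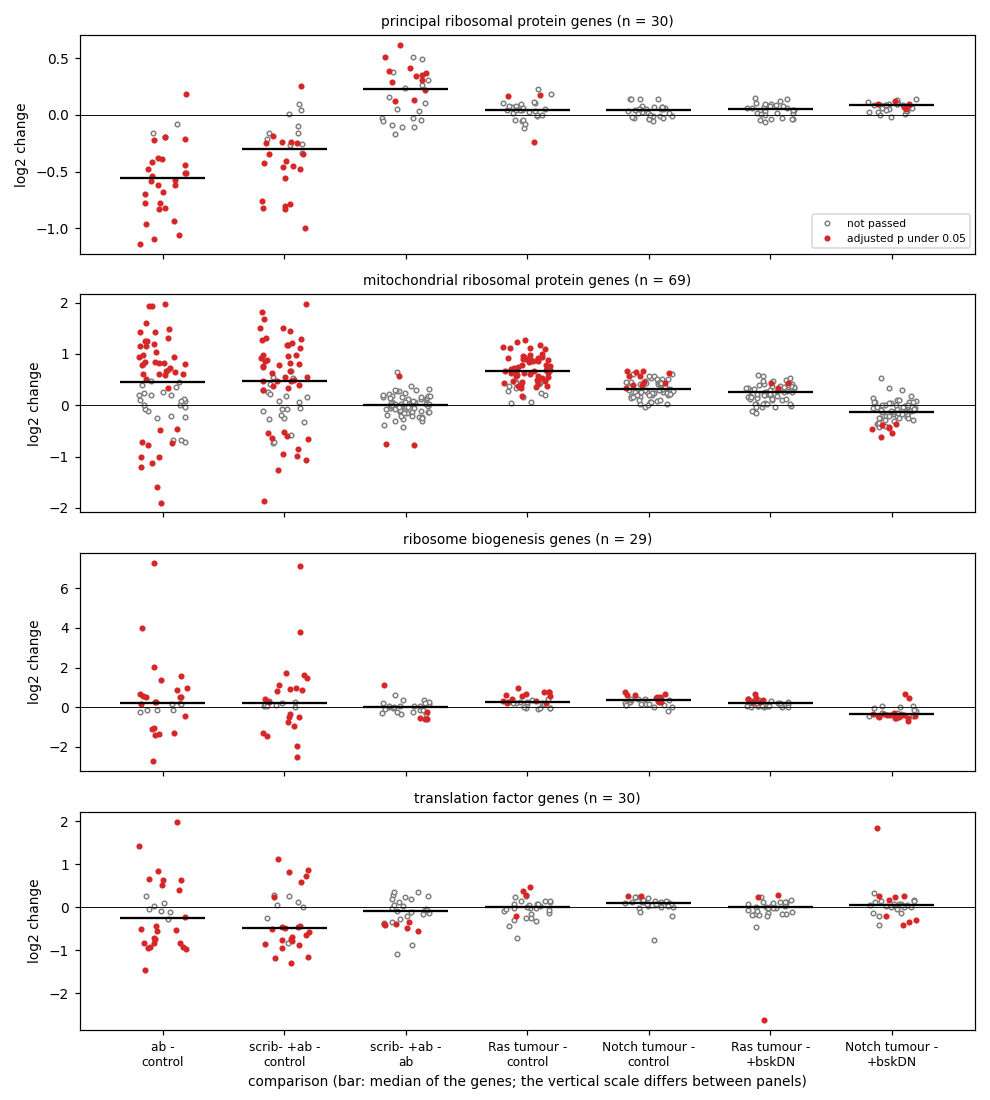
Log2 change of each gene (points) in 4 groups of genes, the 30 principal ribosomal protein genes, 69 mitochondrial ribosomal protein genes, 29 ribosome biogenesis genes and 30 translation factors, in 7 comparisons; bars are medians and red marks an adjusted p under 0.05. Most principal genes lie below 0 in *ab* and *scrib*-+*ab* and near 0 elsewhere, while the mitochondrial genes lie mostly above 0 in *scrib*-+RasACT.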

How the data were processed

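Eye-antennal disc RNA was hybridised to Affymetrix Drosophila Genome 2.0 arrays. The authors deposited 1 table of log2 values for the 21 arrays, made with GCRMA (version not given in the sources used here), which corrects background, quantile normalises and summarises probes. All columns matched a labelled sample (0 unmatched). A probe set was named only where the platform annotation gave a single symbol; RefSeq Release 6 plus ISO1 MT was used for names and chromosome arms. The members and lists were chosen with earlier results of these data known.

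With the 183 AFFX controls left out, linear models were run for 18769 probe sets in limma 3.58.1 (R 4.3.3; functions lmFit and eBayes), and p-values were adjusted by Benjamini-Hochberg over all of them. The 9 control and Abrupt arrays and the 12 Ras and Notch arrays were fitted apart, and the comparisons of tumours with control on all 21 arrays. A change passed at an adjusted p under 0.05, and met the stricter rule where its size was also above 1, after the study's thresholds. Genes named were up to 5 of the greatest rises and falls per comparison, all that met the stricter rule, the copies, members whose probe sets disagree, and up to 3 genes of other lists. Others, such as *RpL32* and the ubiquitin fusions, were chosen after their values were seen. The scripts were tested on simulated data.

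Replicates are separate samples in the labels, with nothing on their cultures or dissections, so the p-values measure the spread between these samples, which may be technical. Arrays give no counts, so the number of arrays limits the precision. Whether same-numbered replicates pair the samples was checked by the correlation of their deviations from the group means. All numbers exceeded 0.1 only for *scrib*-+RasACT against control (0.11, 0.13 and 0.18), where 8 members passed with the replicate block and 8 without it. Alternatives were a further quantile normalisation, centring on the array median, a filter on low values, other probe set rules, eBayes with trend and robust options, only the arrays compared, a replicate block, other member sets and leaving out each array.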

Additional observations from a re-analysis of the deposited data

Results flagged for a closer look

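The difference between the JNK effects of the Ras and Notch tumours passed the limma test for *RpLP0-like*, where it was 0.95, and for the second probe set of *RpS30*, where it was 1.80 (SE 0.22, adjusted p = 0.00165). Without bskDN that probe set was higher by 0.94 in the Ras tumours and lower by 0.86 units in the Notch tumours, while the bright *RpS30* probe set passed in neither. Among the other lists the same difference passed for 13 of the 29 ribosome biogenesis genes, and it was 1.99 for *Ilp8*, -4.49 for *eEF1alpha2* and 1.13 for *l(1)G0004*.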

How the results depend on the processing

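The median change of the principal genes in *ab* was -0.20 after a further quantile normalisation and -0.63 with arrays centred on the median. In *scrib*-+*ab* it was -0.049 after quantile normalisation, -0.26 with the mean over probe sets, -0.26 with the lowest probe set and -0.26 without the duplicated copies. Between *scrib*-+*ab* and *ab* it was 0.12 after quantile normalisation and 0.32 centred. Centring also moved it to 0.10 in *scrib*-+RasACT and 0.084 in *scrib*-+NACT against control. With 1 array left out, the medians ranged from -0.60 to -0.55 in *ab*, -0.35 to -0.24 in *scrib*-+*ab*, 0.15 to 0.25 between these, 0.029 to 0.064 and 0.030 to 0.051 in the Ras and Notch tumours against control, 0.030 to 0.062 and 0.069 to 0.090 for bskDN, and -0.035 to -0.0060 for the interaction.

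Members at an adjusted p under 0.05 numbered 21 in *ab*, 13 in *scrib*-+*ab* and 0 between them with eBayes trend and robust options, in place of 33, 25 and 14. Between *scrib*-+*ab* and *ab* they were 27 centred, 3 with only the arrays compared and 4 with a replicate block. For the bskDN effect in Ras tumours (1) they were 2 after quantile normalisation, 4 with a filter on low values, 2 by the mean and 2 by the lowest probe set, and 0 with trend and robust options, only the arrays compared, a replicate block, no duplicated copies or only the principal genes. In Notch tumours (8) they were 5 centred, 2 filtered, 2 with trend and robust options, 1 with the replicate block and 5 without duplicated copies. For the interaction (1) they were 2 after quantile normalisation, 2 by the mean and 2 by the lowest probe set, and 0 with a replicate block, no duplicated copies or only the principal genes. For *scrib*-+RasACT against control (8) they were 16 centred, 1 with only the arrays compared, 3 without duplicated copies and 3 over the principal genes, and for *scrib*-+NACT (3) 1 with a replicate block and 0 for both member sets. The labels do not say in any comparison whether same-numbered replicates pair the samples. With 1 array left out the ranges were 26 to 30, 18 to 23, 8 to 13, 0 to 9, 4 to 11, 1 to 4, 2 to 11 and 2 to 4, in the order of *ab*, *scrib*-+*ab*, their difference, Ras bskDN, Notch bskDN, interaction, Ras and Notch. The 8 came without *scrib*-+*ab* replicate 2 (9 without replicate 3). The 9 came without *scrib*-+RasACT replicate 3, which also gave the 4 and the 11, and the 2 without its replicate 1 (4 without replicate 2, and 5 without control replicate 2 or 3). The bskDN call in Ras tumours, *RpL7-like*, was lost without any 1 array but *scrib*-+RasACT replicate 3, and the 1 member without bskDN replicate 3 was another gene. Of the members that passed, in the same order, 7 of 33, 7 of 25, 7 of 14, 1 of 1, 4 of 8, 0 of 1, 6 of 8 and 1 of 3 were lost in at least 1 omission. The 4 in Notch tumours came without *scrib*-+NACT replicate 2 or A or bskDN replicate 1 or B. The interaction had 2 without *scrib*-+RasACT replicate 1 or bskDN replicate 3, and 3 without Notch bskDN replicate B.

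Under the stricter rule *ab* had 2 without duplicated copies and 3 over the principal genes (6 to 8 with 1 array left out), and *scrib*-+*ab* had 0 for both sets (2 to 3). Their difference had 0 after quantile normalisation, with trend and robust options and for both sets (1 throughout with 1 array left out). The bskDN effect in Notch tumours had 0 with a replicate block and for both sets (1 throughout). *scrib*-+RasACT had 2 by the mean and 2 by the lowest probe set and 0 for both sets (1 to 2, the 2 without replicate 3). The lowest probe set gave 1 for *scrib*-+NACT and 1 for the interaction (0 to 1, the 1 without *scrib*-+RasACT replicate 3). The Ras bskDN effect and *scrib*-+NACT had 0 whichever array was left out.

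Signs turned for *RpL32* in *ab* after quantile normalisation (0.100, adjusted p = 0.0157), for *RpS19b* in *ab* (-0.25), and for *RpS30*, which was 0.032 in *ab* by the mean and 1.02 by the lowest probe set, and in *scrib*-+*ab* 0.010 after quantile normalisation, 0.31 by the mean and 0.97 by the lowest probe set. Between *scrib*-+*ab* and *ab* the lowest *RpS30* probe set gave -0.051. Quantile normalisation also turned the sign of *RpL15*, *RpL3* and *RpL37A* in *ab* and of *RpL36A* and *RpL39* in *scrib*-+*ab*, which then did not pass, as did the lowest probe set that of *RpS29* in *ab*. Quantile normalisation also moved the share of called changes over all probe sets that were higher from 42.6% to 53.0% between *scrib*-+*ab* and *ab* and from 27.0% to 44.0% for the interaction. The causes were not tested. For the 5 copies near the lower end of the scale no change could be read.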
